A study of Mus musculus with 6 samples.

Results

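Solute carriers, the Slc genes, were followed here through their splicing in hepatocytes of lean and obese mice. Members were taken by symbol: every gene whose name begins with Slc and a family number in either table of splice junction usage, apart from 1 symbol that the rule leaves out. That gave 123 of 7186 genes in 36 families, of which 114 had at least 1 splicing choice measured on both diets. Family 25, the mitochondrial carrier family, made up 27 of these 114 genes and was also described apart. Its members too were taken by symbol, without a check of each product's place or function. The symbols of 3 members, Slc4a1ap, Slc7a6os and Slc9a3r2, contain the name of a carrier, but their products are not carriers.

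Male C57BL/6J mice were kept on chow (13.5% fat) up to 8 weeks of age, then for 12 weeks on a high-fat diet (HFD, 60% fat) or a low-fat diet (LFD, 10% fat). Hepatocytes were isolated from the liver, and 3 stranded mRNA libraries were sequenced per diet; the labels do not say whether each came from its own animal. All values used here combine the libraries of a diet, so no value is given per library or with a spread between animals, and read depth per library is unknown. Of the 8 hepatocyte markers listed, 7 had a measured splicing choice on both diets (Alb, Apob, Ttr, Cps1, Serpinc1, Cyp2e1 and Hnf4a), against 1 of 5 macrophage markers (Clec4f), 1 of 5 bile duct markers (Spp1) and none of 5 endothelial or 5 stellate cell markers. This lists only genes with a splicing choice and is not a measure of expression.

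Solute carriers are membrane proteins that move small molecules such as sugars, amino acids, bile acids, metals and nucleotides across the plasma membrane or the membranes of organelles. In the liver they bring substrates into and out of the hepatocyte, and the carriers of the inner mitochondrial membrane link the urea cycle, fatty acid oxidation and gluconeogenesis to the cytosol. Splicing can change which stretch of the carrier's protein is made, move the reading frame, or alter the leader upstream of the start codon.

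MAJIQ, the program behind the main tables, describes a local splicing variation (LSV): an exon and its set of alternative connections on one side, which can be junctions or a retained intron. PSI is the fraction of an LSV's reads that use 1 junction or intron, here called an entry, and each entry came with a posterior SD that covers the reads but not the animals. Each Slc gene had between 1 and 29 LSVs on both diets with a median of 4, against a median of 3 over all genes. Together they had 648 LSVs with 1677 entries, of which 1472 were spliced junctions and 203 were retained introns (the 2 others had no length).

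The sequences at the sites where Slc splicing choices lie close together show what each choice adds or removes. They were read from the GENCODE M21 transcripts (GRCm38, the mm10 build) in the direction of the gene. Capitals mark the stretch between the paired splice sites, which is kept by one junction and removed by the other, and lower case marks neighbouring bases of the same exon. The Slc15a4 stretch, 58 bases at the start of exon 3 (chr5:127604649-127604706, minus strand), is shown because it carried the largest difference. Those of Slc4a4 (27 bases, chr5:89046366-89046392, plus strand), Slc35b1 (25 bases, chr11:95386486-95386510, plus strand), Slc39a11 (21 bases, chr11:113463951-113463971, minus strand) and Slc50a1 (16 bases, chr3:89268583-89268598, minus strand) belong to LSVs with a difference of over 0.1. All of these stretches are coding in the transcript they were read from. The stretches of Slc4a4 and Slc39a11 are multiples of 3 bases, and the other 3 are not.
Slc15a4: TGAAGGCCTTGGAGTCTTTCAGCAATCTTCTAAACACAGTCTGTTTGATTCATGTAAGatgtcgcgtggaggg
Slc4a4: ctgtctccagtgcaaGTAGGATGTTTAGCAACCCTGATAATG
Slc35b1: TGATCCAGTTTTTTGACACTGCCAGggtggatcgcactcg
Slc39a11: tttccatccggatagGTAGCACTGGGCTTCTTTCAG
Slc50a1: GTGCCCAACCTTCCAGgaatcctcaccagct

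Slc splicing was much alike on both diets. The median over Slc LSVs of the largest absolute PSI difference between diets was 0.00857, against 0.00681 over all 26910 LSVs present on both diets, and 335 of the 648 Slc LSVs (51.7%) differed by less than 0.01. A single entry held at least 0.95 of the reads on both diets in 415 Slc LSVs (64.0%), against 66.8% of all LSVs. In 144 Slc LSVs (22.2%, against 21.8% of all) every entry was at the lowest or highest PSI the tables list, 0.0125 or 0.9875, on both diets. An LSV was called different when 1 of its entries had a PSI difference of 0.2 or more whose normal 95% interval, from the posterior variances, did not include 0. By that rule 2 of the 648 Slc LSVs were called, those of Slc15a4 and Slc4a4 (0.309%), against 0.624% of all LSVs. With a minimum of 0.1 the rule called 28 Slc LSVs (4.32%), against 4.17% of all LSVs, so the Slc share of LSVs lay near the background at this minimum. These LSVs lay in 23 of the 114 Slc genes, against 803 of 5980 over all genes. Slc genes had more LSVs each (median 4 against 3), and the shares of genes were not tested. By gene, the largest difference was under 0.01 in 18 of the 114 genes, from 0.01 to under 0.05 in 40, from 0.05 to under 0.1 in 32 and 0.1 or more in 24, of which Slc12a7 did not pass the rule. No test over animals could be made of any of these differences.

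**Figure D1:**
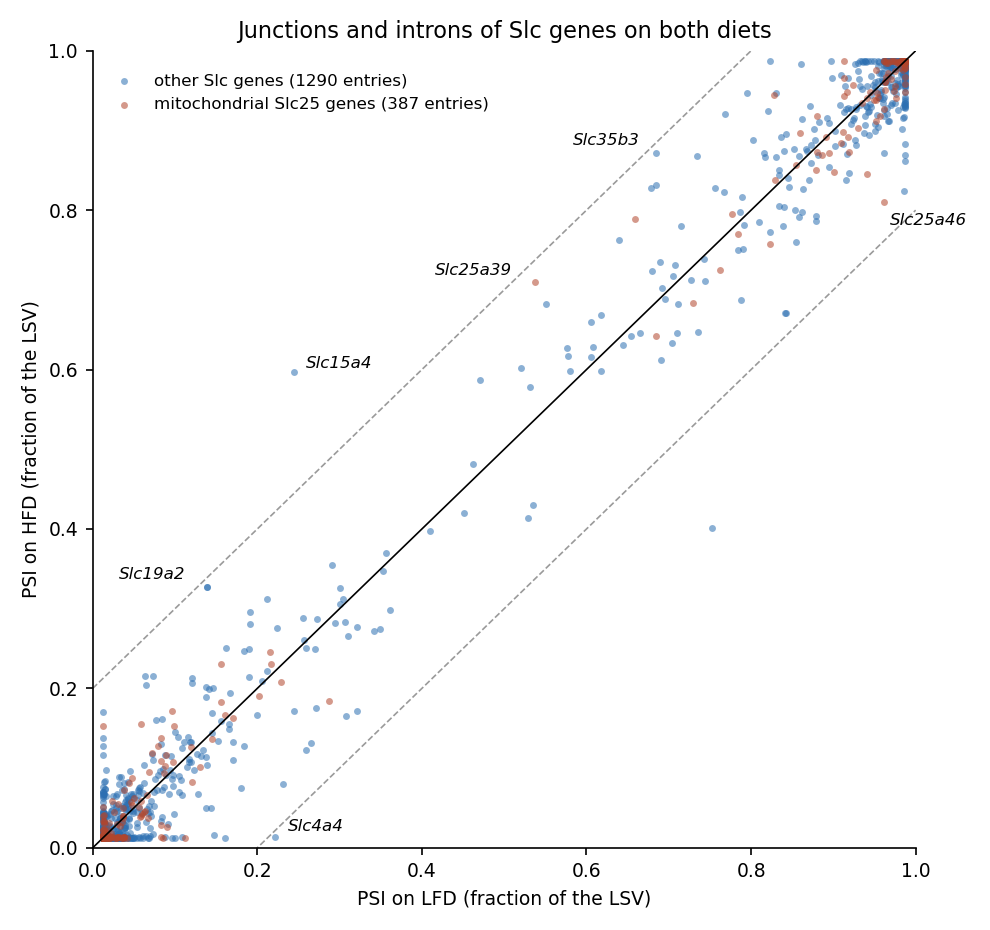
PSI on the HFD (vertical axis) against PSI on the LFD (horizontal axis) for the 1677 Slc entries present on both diets. Each point is 1 junction or intron; the solid line marks equal PSI and the dashed lines a difference of 0.2. Most points lie near the corners, and both main entries of the Slc15a4 LSV (0.244 to 0.597, and 0.753 to 0.401) lie outside the dashed lines.

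The Slc15a4 LSV was the Slc choice that differed most. Slc15a4 encodes a transporter of histidine and short peptides in the membrane of lysosomes and endosomes. Its junction chr5:127604706-127608772, which joins exon 2 to the full exon 3 of the coding transcript Slc15a4-201, had a PSI of 0.753 ± 0.0390 (posterior SD) on the LFD and 0.401 ± 0.0447 on the HFD. The junction to the acceptor 58 bases further in (chr5:127604648-127608772) had 0.244 ± 0.0388 on the LFD and 0.597 ± 0.0447 on the HFD, a difference of 0.352 ± 0.0592. The leading acceptor thus differed between diets: the stretch printed in capitals above was mostly kept on the LFD and mostly removed on the HFD. The inner acceptor is used by 3 annotated transcripts, Slc15a4-203 and Slc15a4-205, which GENCODE classes as targets of nonsense-mediated decay, and Slc15a4-204, a coding transcript in which the site lies in the 5′ UTR. The authors' deposited table of PSI differences, from a separate MAJIQ run, listed this as its only Slc LSV, with 0.754 and 0.402 for the full exon and a difference of 0.360 for the inner acceptor. Of all LSVs present on both diets, 0.36% were in that table. JUM, another splicing program, had the inner acceptor 0.232 higher on the HFD in the authors' deposited table (adjusted p = 0.199, not past 0.05). At the other side of exon 2 the splicing of Slc15a4 was closer, with 0.790 on the LFD and 0.751 on the HFD for the junction chr5:127609061-127616815.

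Slc4a4 was the other called LSV. It encodes a sodium and bicarbonate cotransporter of the plasma membrane. A junction into a downstream exon that GENCODE M21 does not annotate (chr5:89046392-89057949) had 0.222 ± 0.0460 on the LFD and 0.0133 ± 0.00501 on the HFD, close to the lowest value listed. The junction out of that unannotated exon (chr5:89058044-89084642) had 0.0878 on the LFD and 0.0133 on the HFD, a difference that did not reach 0.1. The junction from the inner donor (chr5:89046365-89084642), which leaves out the 27 bases printed above, had 0.0634 ± 0.0271 on the LFD and 0.215 ± 0.0494 on the HFD. Seen from the exon at its other end, that junction had 0.0737 and 0.215. The main junction of the exon, chr5:89046392-89084642, led on both diets, with 0.715 and 0.780. The largest difference in this LSV, 0.208, was just past the minimum, and the next Slc LSV below it was that of Slc19a2 with 0.188. Slc4a4 was in neither of the other tables.

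**Figure D2:**
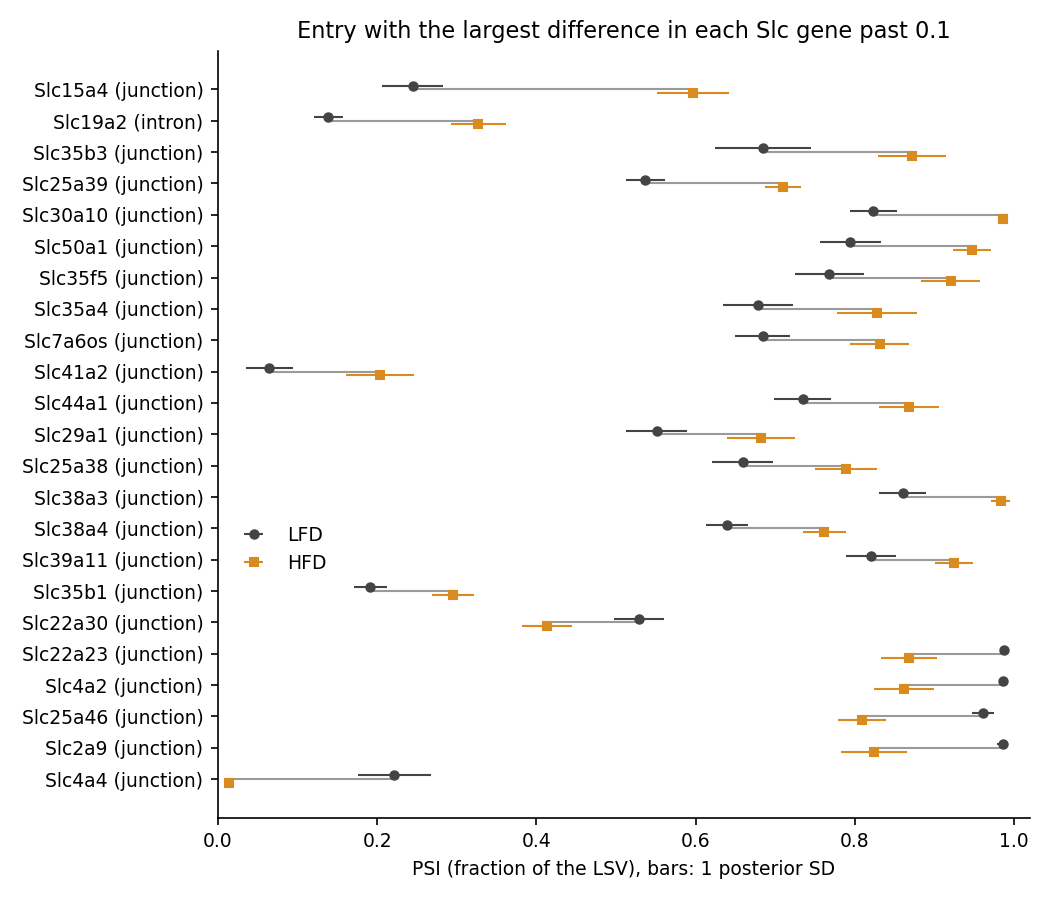
PSI on the LFD (circles) and HFD (squares) with 1 posterior SD, for the entry with the largest difference in each of the 23 Slc genes with an LSV past a difference of 0.1. Slc15a4 has the longest line, and in Slc30a10 and Slc4a4 the HFD value lies at the edge of the range.

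The Slc groups, set by family number as a label for what they carry, had medians of the largest difference per LSV from 0 to 0.0254. Each held mostly LSVs that were close on both diets. What each member carries was not checked. Over all LSVs the median of the largest difference was 0.00681, and 4.17% passed 0.1. The highest median of the largest difference per LSV was 0.0254 in the 11 LSVs of monocarboxylate and dicarboxylate carriers, none of which passed 0.1. The 41 LSVs of zinc and other metal carriers had a median of 0.0252, with 3 past 0.1. At the other end, the 27 LSVs of fatty acid and acetyl-CoA carriers had a median of 0 and none past 0.1, and the 27 of sugar carriers had 0.000749 with 3 past 0.1. The remaining groups lay between, with 0.0182 in the family 17 carriers (0 of 43 past 0.1), 0.0151 in carriers of vitamins, choline, nucleosides and peptides (5 of 64), 0.00997 in carriers of inorganic ions (4 of 48), 0.00802 in carriers of bile acids and organic ions (2 of 77), 0.00621 in nucleotide sugar carriers (4 of 50) and 0.00606 in amino acid carriers (3 of 108). The groups include the 3 members that are not carriers, Slc7a6os under amino acids and Slc4a1ap and Slc9a3r2 under inorganic ions. These medians and counts, some from few LSVs, were not tested against each other or against all LSVs.

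**Figure D3:**
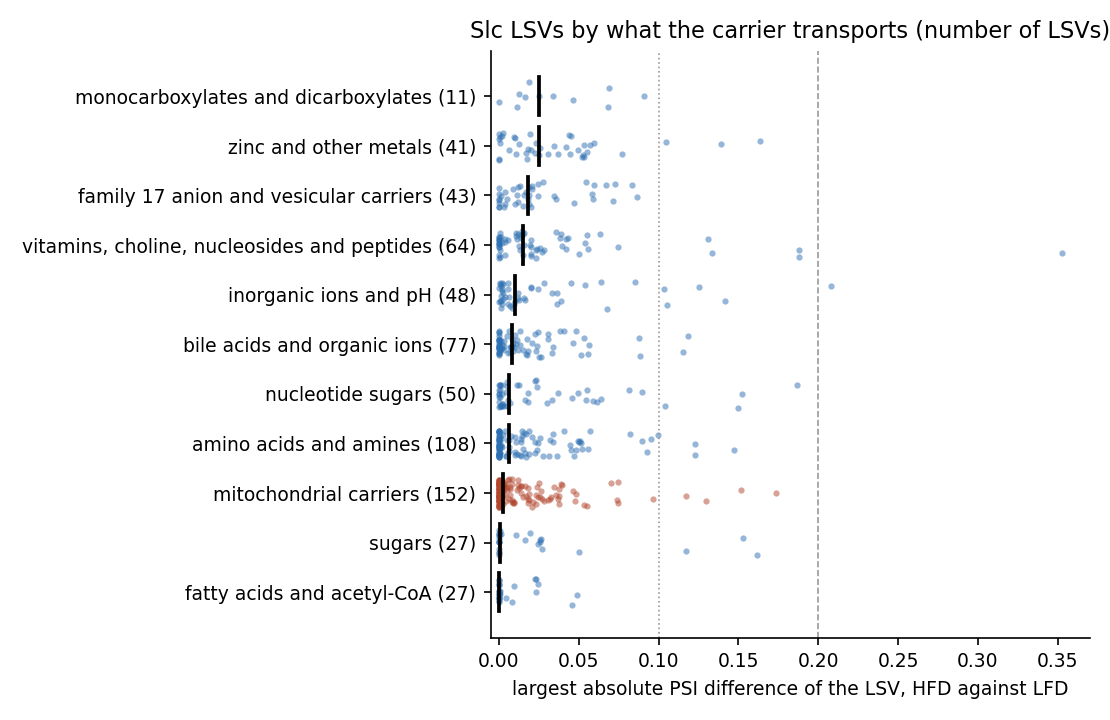
Largest absolute PSI difference between diets of each Slc LSV (points), grouped by family number and labelled by what the family is taken to carry. The group's median is a black bar. The dotted and dashed lines mark 0.1 and 0.2; the mitochondrial carriers, in red, have a median of 0.00268, and 1 point of the vitamin and peptide group, Slc15a4, lies far to the right.

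Among carriers of vitamins, choline and nucleosides, Slc19a2, the plasma membrane thiamine transporter, had more of an intron in its HFD mRNA. The first 113 bases of intron 4 (chr1:164262240-164262352) had a PSI of 0.139 ± 0.0189 on the LFD and 0.328 ± 0.0322 on the HFD, and the same values, 0.139 and 0.327, from the exon at its other end. The junction that removes the intron had 0.842 on the LFD and 0.671 on the HFD. In the authors' deposited table JUM listed the whole 380-base intron of Slc19a2 as 0.207 higher on the HFD (adjusted p = 0.0250). In Slc44a1, a choline transporter, the junction to the terminal exon of Slc44a1-205 had 0.735 on the LFD and 0.868 on the HFD, and the one to the terminal exon of Slc44a1-201 had 0.265 and 0.132. An antisense gene, 1700060J05Rik, overlaps the first of these Slc44a1 junctions, and whether the counting used strand was not examined. Slc29a1, an equilibrative nucleoside transporter, had 21 LSVs. Its leader junction chr17:45593432-45595482 had 0.551 ± 0.0387 on the LFD and 0.682 ± 0.0427 on the HFD. At a coding exon of Slc29a1, a donor that leaves out 6 bases (chr17:45588996-45589001, minus strand) had 0.605 and 0.659. Slc23a1, an ascorbate transporter with 18 LSVs, differed by at most 0.0551.

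Metal carriers past 0.1 were Slc30a10, Slc41a2 and Slc39a11. Slc30a10, which exports manganese, used the annotated acceptor of its second exon at 0.823 ± 0.0295 on the LFD and 0.987 ± 0.00370 on the HFD, while an unannotated acceptor upstream of it had 0.161 on the LFD and 0.0127 on the HFD. In Slc39a11, a member of the zinc importer family, the junction that leaves out the 21 bases printed above had 0.820 ± 0.0312 and 0.925 ± 0.0236. In Slc41a2, of a magnesium transporter family, an unannotated leader junction had 0.0646 and 0.204. Slc39a14, a liver importer of zinc, iron and manganese, is known for a pair of alternative exons. The exon of Slc39a14-201 had 0.679 ± 0.0251 on the LFD and 0.723 ± 0.0270 on the HFD, and that of Slc39a14-202 had 0.321 and 0.277. These Slc39a14 values are from the exon on one side of the pair, where the 95% interval of the difference included 0. From the exon on the other side, the junction to the Slc39a14-201 exon had 0.987 on both diets. The junction to the Slc39a14-202 exon had 0.0134 on the LFD and 0.0125 on the HFD there. The ends thus differ on how much the Slc39a14-202 exon was used.

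Family 35 was grouped here as nucleotide sugar carriers by its number alone, and what each member carries was not checked. In this family 4 of 14 genes had an LSV past 0.1, against 803 of 5980 over all genes. In Slc35b3 the junction that keeps an exon of Slc35b3-201 had 0.685 ± 0.0602 on the LFD and 0.872 ± 0.0428 on the HFD, and the one that skips it had 0.259 and 0.123. The wide posterior SDs of Slc35b3 make it one of the less precise Slc values, and an annotated lincRNA gene, Gm26514, overlaps it on the same strand. Slc35f5 joined its second exon to the start exon of Slc35f5-201 at 0.768 and 0.921, and to that of Slc35f5-203 at 0.232 and 0.0795. In Slc35b1 the acceptor that removes the 25 bases printed above had 0.192 ± 0.0202 on the LFD and 0.295 ± 0.0264 on the HFD. The authors' deposited table has that Slc35b1 acceptor 0.116 higher by JUM (adjusted p = 0.405). Slc35a4 removed an intron of its leader at 0.678 ± 0.0437 and 0.828 ± 0.0499 from one end, and at 0.689 and 0.735 from the other, so that only one end passed 0.1.

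Among sugar carriers the main glucose and glucose 6-phosphate transporters of the hepatocyte were close on both diets. Slc2a2, the glucose transporter GLUT2, differed by at most 0.0269 over 6 LSVs, and Slc37a4, the glucose 6-phosphate translocase, by at most 0.0256 over 6. The Slc2a2 junction with that difference is overlapped by an antisense gene, 1700112D23Rik. Slc2a9, a urate transporter, used its annotated leader junction at 0.986 ± 0.00657 on the LFD and 0.825 ± 0.0415 on the HFD, while a junction to an unannotated site had 0.0128 and 0.170. In Slc50a1, a sugar transporter of the SWEET family, the annotated acceptor of the last exon had 0.795 ± 0.0386 and 0.947 ± 0.0234, and the unannotated one that removes the 16 bases printed above had 0.137 and 0.0494.

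Of the 12 genes grouped as amino acid carriers, 3 had an LSV past 0.1, against 803 of 5980 over all genes. These were Slc38a4, Slc38a3 and Slc7a6os, the last of which is counted by its symbol only. By LSV this was 3 of 108, against 4.17% of all LSVs. Slc38a4, a system A transporter that is abundant in liver, joined an exon at the start of its coding part to the leader exon of Slc38a4-204 at 0.639 ± 0.0266 on the LFD and 0.762 ± 0.0270 on the HFD, and to that of Slc38a4-202 at 0.272 and 0.175. Slc38a3, the system N glutamine transporter, had the most LSVs of any Slc gene, 29, with a median difference of 0.00638. Its leader junction chr9:107659244-107668853 had 0.860 ± 0.0294 and 0.983 ± 0.0117. An intron of 94 bases in Slc38a3 (chr9:107656271-107656364) had 0.0960 ± 0.0125 on the LFD and 0.0125 on the HFD from one end. Of the 20 intron entries of Slc38a3, only this 1 differed by at least 0.05 with an interval that did not include 0. JUM listed composite events that span these leaders in the authors' deposited table, with adjusted p of 0.00682 for Slc38a4 and 0.0227 for Slc38a3 and largest changes of 0.0776 and 0.0481. Which junction of a composite event each of these changes belongs to was not worked out. Slc7a2, a cationic amino acid transporter, differed by at most 0.0473. Slc7a6os, which is not a carrier, used its annotated acceptor at 0.684 and 0.832.

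Slc38a2, a further system A transporter, was named after its values were seen, for its retained introns. An intron of 144 bases (chr15:96698038-96698181, minus strand) had a PSI of 0.212 ± 0.0245 on the LFD and 0.312 ± 0.0449 on the HFD from one end and 0.138 and 0.189 from the other. A second, of 121 bases (chr15:96695095-96695215), had 0.121 and 0.213 from one end and 0.10 and 0.145 from the other. At both ends of the 144-base intron the 95% interval of the difference included 0. Of the 12 intron entries of Slc38a2, 2 differed by at least 0.05 with an interval that did not include 0, 1 end of the 121-base intron and 1 end of a 127-base intron (0.0458 on the LFD and 0.0961 on the HFD). Slc17a2, a family 17 anion carrier, kept an intron of 85 bases (chr13:23819997-23820081, plus strand) at 0.121 ± 0.0150 on the LFD and 0.207 ± 0.0219 on the HFD. Transcripts annotated as retaining an intron keep both the 144-base and the 85-base intron, and their sequences are printed with the intron in capitals and the flanking exon bases in lower case, to show the short, complete introns that stayed in part of the mRNA.
Slc38a2: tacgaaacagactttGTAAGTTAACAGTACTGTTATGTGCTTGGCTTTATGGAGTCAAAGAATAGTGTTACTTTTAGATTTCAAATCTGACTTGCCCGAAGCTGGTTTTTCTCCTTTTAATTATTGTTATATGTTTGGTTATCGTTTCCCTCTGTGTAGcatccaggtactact
Slc17a2: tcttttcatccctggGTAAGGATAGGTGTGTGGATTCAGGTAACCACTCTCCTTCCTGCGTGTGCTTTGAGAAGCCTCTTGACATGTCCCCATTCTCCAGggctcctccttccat

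Carriers of bile acids and organic ions included Slc10a1, the sodium-dependent bile acid uptake transporter NTCP. Slc10a1 differed by at most 0.0239 over 4 LSVs. Slc22a30, an organic anion transporter from a cluster of similar genes on chromosome 19 whose reads may be shared between copies, had 15 LSVs. An intron of 76 bases in Slc22a30 had 0.471 ± 0.0313 on the LFD and 0.587 ± 0.0317 on the HFD from one end, but 0.10 ± 0.0138 and 0.0125 from the other, so its ends went opposite ways. JUM listed another Slc22a30 intron, chr19:8336927-8337870 (intron 8 of Slc22a30-202), in the authors' deposited table as 0.168 higher on the HFD (adjusted p = 7.8e-05). The junction that removes this intron had 0.867 on the LFD and 0.877 on the HFD in the PSI tables, which list no entry for the intron itself. Slc22a23, an orphan member, kept an intron of 121 bases at 0.0125 and 0.128. Slc27a2 and Slc27a5, fatty acid and bile acid CoA ligases, differed by at most 0.0487 and 0.0243.

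Among inorganic ion carriers, Slc4a2, a chloride and bicarbonate exchanger, kept a 97-base intron (chr5:24435018-24435114) at 0.0131 ± 0.00389 on the LFD and 0.138 ± 0.0377 on the HFD, and at 0.0131 and 0.117 from its other end. In Slc12a7, a potassium and chloride cotransporter, a junction to 1 exon had 0.535 ± 0.0433 on the LFD and 0.430 ± 0.0365 on the HFD, a difference whose 95% interval included 0, and another junction to this exon had 0.462 and 0.482. The leading entry differed between diets in 3 Slc LSVs (0.463%, against 0.862% of all), those of Slc15a4, Slc12a7 and Slc22a30.

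The 27 mitochondrial carriers had 152 LSVs on both diets, and none was called different, against 0.624% of all LSVs, so the count lies near the background. Their median largest difference was 0.00268, against 0.0115 in the other 496 Slc LSVs and 0.00681 over all LSVs. In 30.3% of them every entry was at the lowest or highest listed PSI on both diets, against 19.8% of the other Slc LSVs. Past 0.1 were 4 of the 152 LSVs, in Slc25a39, Slc25a46 and Slc25a38 (2.63%, against 4.17% of all LSVs). The difference between the Slc25 genes and the others was not tested.

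A list of 15 liver transporters, some of them mitochondrial, had an LSV on both diets in 14 genes. None of its 140 LSVs was called, against 0.624% of all LSVs, so the count lies near the background. The largest difference of a gene was under 0.05 in 11 of the 14, and the highest was 0.123, in Slc38a3. Slc25a1, the citrate carrier, and Slc25a20, the carnitine and acylcarnitine carrier, differed by at most 0.000171 and 0.000165. Slc25a13, the aspartate and glutamate carrier citrin, had 18 LSVs and differed by at most 0.0141. At its choice between acceptors 3 bases apart, the annotated acceptor, which keeps the CAG at chr6:6110022-6110024, had 0.216 ± 0.0231 on the LFD and 0.230 ± 0.0248 on the HFD, while the unannotated one that leaves it out had 0.784 and 0.770. The leading form of Slc25a13 at this site on both diets was thus the one without the CAG. Slc25a3, the phosphate carrier, differed by at most 0.0370, and Slc25a15, the ornithine carrier of the urea cycle, by at most 0.0190.

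Slc25a39, a carrier needed for mitochondrial glutathione, differed most of the mitochondrial members. In its leader the junction to the first exon of Slc25a39-201 (chr11:102406654-102407390) had 0.537 ± 0.0246 on the LFD and 0.710 ± 0.0226 on the HFD, and a 34-base intron next to it had 0.287 ± 0.0215 and 0.184 ± 0.0190. The authors' deposited table gives the same junction of Slc25a39 as 0.105 higher by JUM (adjusted p = 0.120). Slc25a46, an outer mitochondrial membrane protein, used the junction from its annotated donor to the next exon at 0.962 ± 0.0137 and 0.810 ± 0.0303, and the junction from the same donor that skips an exon at 0.0371 and 0.0379, while an unannotated site had 0.0125 and 0.152. In Slc25a38, the glycine carrier of heme synthesis, the junction that skips a set of small exons, found in transcripts classed as targets of nonsense-mediated decay or as processed transcripts, had 0.659 ± 0.0387 and 0.789 ± 0.0388.

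JUM listed 20 Slc events in 14 genes, of which 7, in 6 genes, had an adjusted p under 0.05 by the authors' deposited table, against 17.7% of all 470 listed events. That table holds only events JUM had already selected, so shares within it describe the list. In the authors' deposited table all 7 listed Slc introns were higher on the HFD, in Slc25a47 (3 introns), Slc19a2, Slc22a30, Slc25a15 and Slc25a3, but so were 83.1% of the 118 introns the table lists. Past the adjusted p and higher in the authors' deposited table were 4 of the 7 Slc introns, against 35.6% of the 118. The median change of the Slc introns in the authors' deposited table was 0.123, against 0.0995 over all listed introns.

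**Figure D4:**
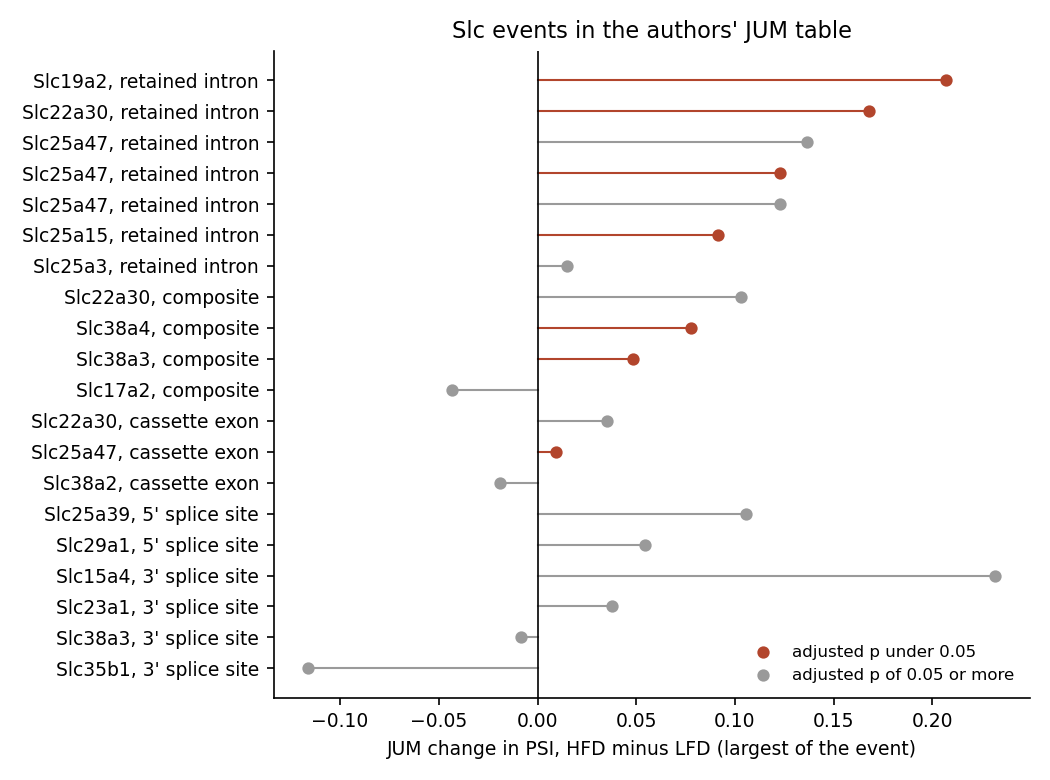
Change in PSI, HFD minus LFD, of the 20 Slc events in the authors' deposited JUM table, by event class; red points have an adjusted p under 0.05. For events with several junctions the change of largest size is drawn, so its sign belongs to that junction alone; all 7 retained introns lie to the right of 0.

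Slc25a47, a carrier found mainly in liver, held 4 of the JUM events. Its last intron (chr12:108855619-108855938, intron 5 of Slc25a47-201) was 0.123 higher on the HFD in the authors' deposited table (adjusted p = 0.0376). Intron 3 was 0.136 higher in the authors' deposited table (adjusted p = 0.0809) and intron 4 was 0.123 higher (adjusted p = 0.181), neither past 0.05. A cassette exon of 183 bases in Slc25a47 was past 0.05 there with a small change of 0.00937 (adjusted p = 0.0465 in the authors' deposited table). In the PSI tables intron 3 of Slc25a47 had 0.0826 ± 0.0137 on the LFD and 0.138 ± 0.0206 on the HFD, and intron 4 had 0.0825 and 0.109. The last intron of Slc25a47, without its first 11 bases, went opposite ways at its ends, with 0.0859 on the LFD and 0.0125 on the HFD from one end and 0.0894 and 0.116 from the other. For Slc25a15 JUM listed intron 5 of Slc25a15-201 (chr8:22379443-22380837) as 0.0912 higher on the HFD in the authors' deposited table (adjusted p = 0.0146), an intron with no entry in the PSI tables.

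Over all Slc genes, the retained introns of the PSI tables had a median difference of 7.5e-12. With a difference of at least 0.05 whose 95% interval did not include 0, 14 intron entries in 9 Slc genes were higher on the HFD and 7 entries in 6 genes were lower, against 479 higher and 335 lower over all genes. Slc genes had a retained intron in 31.3% of their LSVs, against 25.5% of all, and the Slc25 genes in 37.5%. Of the 17 Slc introns seen from both ends with a difference of at least 0.05 at one of them, 3 went opposite ways, those of Slc22a30, Slc25a22 and Slc25a47, against 95 of 679 over all genes.

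Precision was lower on the HFD. At Slc entries with PSI between 0.1 and 0.9 on both diets the median posterior SD was 0.0245 on the LFD and 0.0287 on the HFD, and it was the larger on the HFD in 146 of 182 entries, against 5792 of 7126 over all genes. The LFD table alone held 65 Slc LSVs, 9.12% of its Slc LSVs, and the HFD table alone held 14 (2.11%), against 16.6% and 1.94% over all genes. Of the 123 genes, 8 had an LSV on the LFD only, among them Slc11a2, Slc12a4, Slc16a11, Slc2a1, Slc30a1, Slc35e3 and Slc7a10, and Slc39a4 had one on the HFD only. Whether these differ in splicing, in expression or in depth cannot be told apart.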

How the data were processed

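The submitters' processing notes name FastQC, STAR and the mm10 build, without versions. Per the file headers and labels, the authors deposited voila/MAJIQ tables of PSI (a fraction) and posterior variance for each diet, with libraries pooled, a table of PSI differences from a separate run marked strict, and a JUM table of selected events with p-values and adjusted p-values. The probability column of the difference table contradicts its heading (some changes near 0 are given a probability of 1), so all its LSVs were counted. JUM's title names NC livers, but the heading of its change column gives HFD minus LFD and was followed. Whether JUM's p-values allow for spread between libraries is not known here.

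LSVs were matched by identifier (Python 3.11.15 and pandas 2.3.3) and called as described. The rule was tried on simulated reads that had no spread between animals or libraries. That trial therefore cannot show how often the rule calls differences that arise between animals. JUM events were matched by coordinates. All 114 genes matched GENCODE M21 by identifier. Members and lists were chosen with earlier results of these data known. Genes named by rule were those called, listed in the difference table or past JUM's adjusted p, the 10 with the largest difference at posterior SDs under 0.05, 15 liver transporters (not all reported here) and the genes with the most LSVs. The other genes past 0.1, Slc12a7, Slc25a3's intron and those named for group membership were chosen after their values were seen.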

Additional observations from a re-analysis of the deposited data

How the results depend on the processing

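No paired analysis was possible because every table pools the libraries of a diet, and for the same reason no library could be left out in turn. The count of called Slc LSVs, 2, became 28 with a minimum difference of 0.1 and 1 with a minimum of 0.3, and stayed at 2 with 3 posterior SDs, with LSVs whose posterior SDs were all under 0.05, with spliced junctions alone, and without the 3 symbols that are not carriers (an alternative chosen after seeing the data). No mitochondrial LSV was called, and with a minimum of 0.1 the count was 4. Taking the largest difference per gene gave medians of 0.0480 for Slc and 0.0269 for Slc25 genes in place of 0.00857 and 0.00268, since a gene takes the largest of several LSVs. The 7 Slc events past JUM's adjusted p in the authors' deposited table became 2 at an adjusted p under 0.01 and 20 with every listed event. At the same junction JUM gave a smaller change in the authors' deposited table, with the same sign, for Slc15a4 (0.232 against 0.352). For Slc25a39 this held at the junction of largest difference (0.105 against 0.174), but not at its other listed junctions, such as -0.0518 against -0.0177. JUM gave larger changes in the authors' deposited table at both Slc35b1 junctions (0.116 against 0.104, and -0.116 against -0.0781). In Slc29a1 the JUM change was larger at 1 junction (0.0543 against 0.0539) and smaller at the other (-0.0543 against -0.0745). The cause was not tested.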
